A study of Mus musculus with 3 samples.

Results

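The cells described here are cycling and non-cycling cells of mouse embryonic kidneys that had been grown as explants. Of 500 wells kept as single cells on a pair of cultured plates, 125 were classed as cycling because they held at least 3 counts of Mki67 and Top2a together. Another 157 were classed as non-cycling because they held no count of Mki67, Top2a, Cdk1 or Rrm2, and 218 wells met neither condition. The plate of E12.5 kidneys held 57 cycling and 52 non-cycling wells among 200, and the plate of E11.5 kidneys 68 cycling and 105 non-cycling wells among 300. These 4 genes chose the wells, so their own levels are a description and support nothing.

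The series was made to follow cells with Lgr6, an R-spondin receptor that strengthens Wnt signals, by SORT-seq, in which sorted cells lie in 384-well plates and each transcript carries a molecular identifier. All mice had the C57BL/6 background. Cells of the cultured plate called E12.5 here came from kidneys of that age grown for 5 days. Those of the cultured plate called E11.5 came from kidneys grown for 7 days according to the title, whereas the stage label says 5 days. Both carried LGR6-EGFP-IRES-CreERT2 and ROSA26-tdTomato, and the medium held 10% fetal calf serum. Another plate held E11.5 kidney cells with LGR6-EGFP-IRES-CreERT2 alone, taken without culture, and is used only beside the others. The sources used here do not state the sort gate or how many embryos were pooled.

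Dividing cells copy their DNA in S phase and separate it in mitosis, and each phase has its own set of transcripts: replication factors such as the MCM helicase in S phase, and mitotic cyclins, kinesins and the chromosomal passenger complex in G2 and mitosis. D cyclins carry growth signals to the cell cycle, and the inhibitor Cdkn1c (p57), an imprinted gene, holds cells out of it. In the embryonic kidney the mesenchyme gives rise to nephron progenitors marked by Six2 and to stroma, in which Foxd1 marks the early cortical cells and Penk, Lum, Dcn and Col14a1 belong to later or medullary stroma with a collagen matrix.

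Each plate is 1 sample, cells are not replicates and the classes were chosen from the same counts, so no test was run. The spread that can be shown is that between wells and between the pair of plates, whose ratios are given side by side. Levels are in CPM, a gene's counts scaled to 1000000 counts of nuclear-encoded genes, over the summed wells of a class unless a value per well is given. Ratios carry exact binomial 95% intervals (Clopper-Pearson), which cover counting error only and are narrower than the spread between cells. Where a class had 0 counts, the fold was taken against 3 counts over the class and is written "at least".

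Cycling wells were deeper than non-cycling wells. The E12.5 plate had a median of 13001 counts in cycling wells and 6753 in non-cycling wells, and the E11.5 plate 13341 in cycling wells and 7158 in non-cycling wells. A deeper well reaches 3 counts more easily, and with every well thinned to 3000 counts 38.2% of 191 wells (31.3 to 45.5) and 30.9% of 288 wells (25.6 to 36.6) held at least 1 count of Mki67 or Top2a. Without thinning the shares classed as cycling were 28.5% (22.4 to 35.3) for E12.5 and 22.7% (18.1 to 27.8) for E11.5. In the 15 empty control wells of each cultured plate the highest Mki67 and Top2a count was 1 on the E12.5 plate and 0 on the E11.5 plate. Just outside the threshold, 18 and 15 wells had exactly 2 counts, of which 12 and 8 also held Cdk1 or Rrm2. Just inside it, 7 and 8 wells had exactly 3, of which 7 and 6 held Cdk1 or Rrm2.

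To compare like depths, cycling and non-cycling wells of the same plate were paired within 0.1 on the log10 scale of their counts. This gave 32 pairs for E12.5 and 51 for E11.5. The median depth was then 9788 in cycling and 8047 in non-cycling wells of the E12.5 plate, and 10634 in cycling and 10321 in non-cycling wells of the E11.5 plate. Cycling wells still listed more genes, 4127 against 3527 in non-cycling wells on the E12.5 plate and 4185 against 3982 on the E11.5 plate. Left out by the pairing were 25 and 17 cycling wells, with median depths of 19085 and 21749, and 20 and 54 non-cycling wells. The mitochondrial share was close, 3.37% in cycling and 3.75% in non-cycling wells on the E12.5 plate, 3.42% in cycling and 3.49% in non-cycling wells on the E11.5 plate. Both plates use the same 384 well names and 1 sequencing run, and of 190 names kept on both plates 57 were cycling on the E12.5 plate, 40 on the E11.5 plate and 14 on both.

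**Figure D1:**
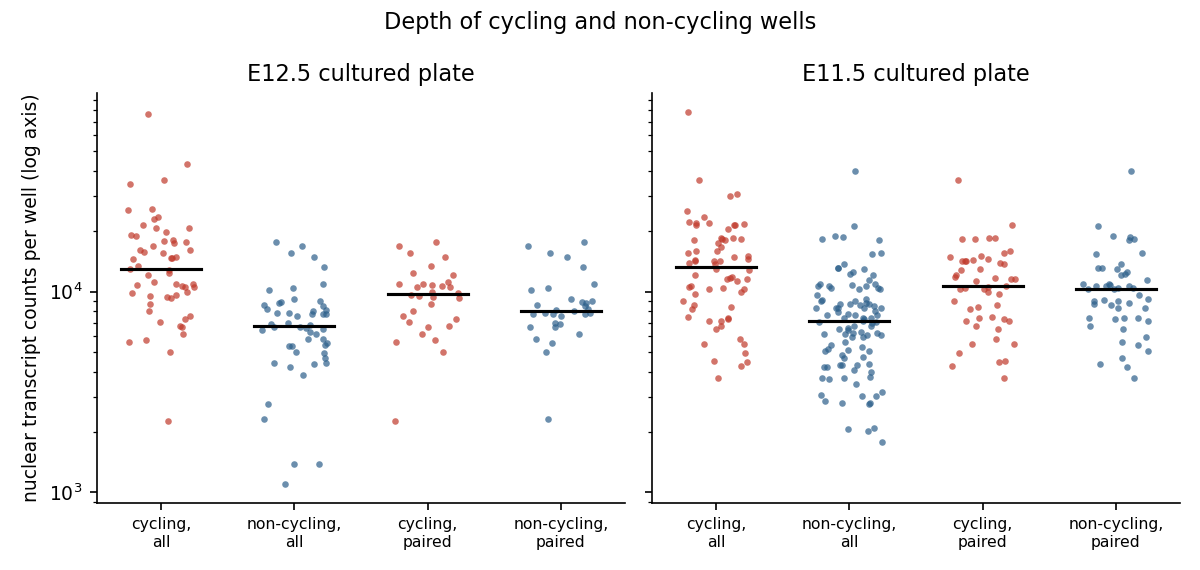
Nuclear transcript counts per well on a log axis, for all cycling and non-cycling wells and for the wells paired by depth, with the E12.5 cultured plate left and the E11.5 cultured plate right. Each point is a well and the black line is the median. Before pairing, cycling medians of 13001 and 13341 stand against non-cycling medians of 6753 and 7158, and after pairing cycling medians of 9788 and 10634 stand against non-cycling medians of 8047 and 10321.

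Of the genes of the rule, Mki67, a marker of proliferating nuclei, was at 754 CPM in paired cycling wells of either plate, and Top2a, the topoisomerase that untangles chromosomes, at 908 and 1002 CPM. The mitotic kinase Cdk1 was at 437 and 416 CPM and Rrm2, which makes deoxynucleotides, at 354 and 199 CPM. These genes were at 0 in non-cycling wells by construction. A list of 134 other genes of G2 and mitosis, 130 of them in the tables, separated most wells of the classes. On the E12.5 plate their summed level had a lowest, median and highest value of 4021, 16763 and 40099 CPM in cycling wells, against 431, 1760 and 5212 CPM in non-cycling wells. It had 2646, 18931 and 38094 CPM in cycling wells of the E11.5 plate, against 593, 2038 and 5640 CPM in non-cycling wells. Above every paired non-cycling well lay 31 of 32 and 44 of 51 cycling wells. Genes of this list are expressed together with the rule genes, so the separation describes the chosen classes and is no independent support for them.

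The S phase and replication list, 93 genes, overlapped more. It had a lowest, median and highest level of 1559, 10581 and 27222 CPM in cycling wells and 861, 2224 and 7448 CPM in non-cycling wells of the E12.5 plate. Values on the E11.5 plate were 1614, 7877 and 17832 CPM in cycling wells and 478, 2025 and 8508 CPM in non-cycling wells. Above every paired non-cycling well lay 19 of 32 and 22 of 51 cycling wells. Cycling wells spread along both lists, and in 23 of 32 and 38 of 51 the G2 and mitosis level exceeded the S phase level, as in 8 of 32 and 20 of 51 non-cycling wells. The rule asks for Mki67 and Top2a, so these shares, too, describe the wells it chose. Over all listed genes, the G2 and mitosis list had 5261 counts in paired cycling and 563 in paired non-cycling wells of the E12.5 plate, and 11039 in cycling and 1149 in non-cycling wells of the E11.5 plate. The S phase list had 3185 counts in cycling and 881 in non-cycling wells, and 4478 in cycling and 1352 in non-cycling wells. A further list of 56 chromatin and histone genes tied to the cycle had 5911 counts in cycling and 2833 in non-cycling wells, and 9728 in cycling and 5765 in non-cycling wells. Only 37 and 89 of the G2 and mitosis genes reached the 50 counts asked of a gene to be compared, 34 and 87 of them by their cycling counts alone and 0 and 5 by their non-cycling counts alone. The share of compared genes that were higher was therefore partly set by that filter and supports nothing.

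**Figure D2:**
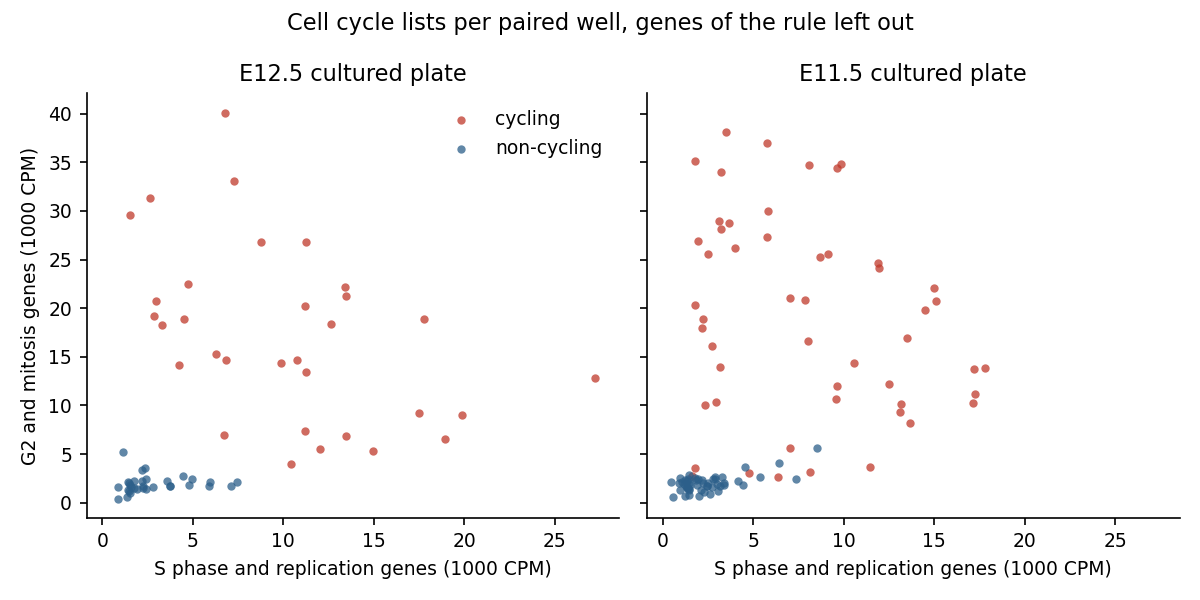
Summed level of the S phase and replication genes (horizontal axis) and of the G2 and mitosis genes (vertical axis), each in 1000 CPM, in each paired well, without the genes that chose the wells. Red points are cycling and blue points non-cycling wells. Non-cycling wells lie low on the vertical axis, at up to 5212 and 5640 CPM of G2 and mitosis genes. On the horizontal axis they reach 7448 and 8508 CPM of S phase genes and overlap many cycling wells. Cycling wells spread upward and to the right.

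Among single G2 and mitosis genes, Ccnb1, the cyclin of mitotic entry, had 68 counts in cycling and 2 in non-cycling wells of the E12.5 plate, 31.0-fold higher (8.26 to 261). For E11.5 it had 138 counts in cycling wells and 1 in non-cycling wells, 131-fold higher (23.1 to 5194). Ccna2, the cyclin of S phase and G2, was 112-fold higher (19.8 to 4465) and 34.5-fold higher (16.5 to 86.6). Birc5, a subunit of the chromosomal passenger complex, was 38.3-fold higher (10.3 to 321) and 63.4-fold higher (17.2 to 529), and the spindle kinesin Kif15 46.5-fold (7.98 to 1872) and 42.6-fold (11.45 to 357). The spindle assembly factor Tpx2 had 94 counts in cycling and 0 in non-cycling wells of the E12.5 plate, at least 28.6-fold higher, and was 38.4-fold higher (16.2 to 120) on the E11.5 plate. In the S phase list the leading genes were Tk1, which makes thymidine nucleotides, at 23.4-fold (7.71 to 116) and 27.4-fold (10.4 to 102), Tyms at 7.75-fold (3.72 to 18.7) and 12.3-fold (5.73 to 31.4), and Uhrf1, which reads DNA methylation at forks, at 8.21-fold and 10.0-fold. Lig1 and Rrm1, for ligation of replicated DNA and for deoxynucleotides, were 5.601-fold to 6.26-fold higher on both plates.

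Promoters of genes of G2 and mitosis are known for CCAAT boxes and for the CHR element, to which DREAM and B-Myb complexes bind. Of the 134 G2 and mitosis genes, 109 had promoters in a RefSeq table for GRCm38.p6, 121 in all, each covering 250 bases before to 50 after a start site. For the CHR the letters TTTGAA were searched for, as was the variant written TTCGAA, both on either strand. They stood in 65.3% of these promoters, against 13.5% of 2666 promoters of the genes compared on both plates and 19.2% of all 32851 promoters. CCAAT, on either strand, stood in 71.9%, against 37.8% of the compared genes and 37.4% of all. For S phase genes, whose 84 promoters are known for E2F sites, the letters GGCGGGAA on either strand stood in 17.9%, against 4.35% of the compared genes and 2.19% of all promoters. The E2F letters were found in 2.48% of the G2 and mitosis promoters, and the CHR letters in 19.05% of the S phase promoters. A match of letters is a description and does not show binding. To show these letters where they lie, the 120 bases before the start site are given 5′ to 3′ along the gene for the rule genes Mki67 (chr7:135716380-135716499, minus strand), Top2a (chr11:99024190-99024309, minus strand) and Cdk1 (chr10:69352913-69353032, minus strand), and for Ccnb1 (chr13:100786487-100786606, minus strand), Kif15 (chr9:122950961-122951080, plus strand) and Birc5 (chr11:117849117-117849236, plus strand). Capitals mark the searched letters as they read on this strand, CCAAT boxes and CHR letters alike, including matches of the other strand, which read ATTGG for the CCAAT box and TTCAAA for the CHR.
Mki67: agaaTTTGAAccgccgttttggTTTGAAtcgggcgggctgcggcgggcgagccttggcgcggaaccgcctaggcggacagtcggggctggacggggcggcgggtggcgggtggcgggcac
Top2a: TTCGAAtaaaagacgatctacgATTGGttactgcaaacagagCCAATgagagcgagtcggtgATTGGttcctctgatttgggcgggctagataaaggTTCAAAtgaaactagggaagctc
Cdk1: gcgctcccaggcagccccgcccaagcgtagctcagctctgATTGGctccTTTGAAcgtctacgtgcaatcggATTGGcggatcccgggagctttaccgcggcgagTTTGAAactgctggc
Ccnb1: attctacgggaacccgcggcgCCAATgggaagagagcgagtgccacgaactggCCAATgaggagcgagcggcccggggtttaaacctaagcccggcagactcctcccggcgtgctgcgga
Kif15: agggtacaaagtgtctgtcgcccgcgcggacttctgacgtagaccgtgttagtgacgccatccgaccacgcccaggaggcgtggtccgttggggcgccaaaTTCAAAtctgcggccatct
Birc5: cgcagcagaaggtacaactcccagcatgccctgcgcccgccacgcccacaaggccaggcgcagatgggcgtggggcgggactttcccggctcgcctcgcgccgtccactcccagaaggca
Within these windows Top2a and Cdk1 hold both kinds of letters, Mki67 and Kif15 hold CHR letters and no CCAAT, Ccnb1 holds CCAAT alone, and Birc5 holds neither.

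Over all genes with at least 50 counts in the pairs of a plate, 173 of 2712 (6.38%) were at least 2-fold higher in cycling wells of the E12.5 plate and 99 (3.65%) at least 2-fold lower. For E11.5, 296 of 5187 (5.71%) were higher and 192 (3.7%) lower. The median log2 ratio was 0.05 on the E12.5 plate and 0.01 on the E11.5 plate. Of 2693 genes compared on both plates, 94 (3.49%) were at least 2-fold higher on both and 7 (0.26%) at least 2-fold lower on both. The cell cycle lists (rule genes, S phase, G2 and mitosis, and chromatin genes tied to the cycle) held 107 of the compared genes. Besides the 4 rule genes, whose ratios the choice of wells fixed and which are among the 94, 67 of 103 were higher on both and 0 lower, and many of these reached 50 counts through the cycling wells. Outside them 2586 genes were compared, with 23 higher and 7 lower on both plates. The lists are not complete, so a gene outside them can still act in the cell cycle, as do Pclaf and Pkmyt1 among the 23. On the E12.5 plate none of the 23 reached 50 counts by non-cycling wells alone (at most 47, H1fx). None of the 7 did so by cycling wells alone (at most 36, Plpp3). Which genes could be called was therefore partly set by the filter on counts.

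**Figure D3:**
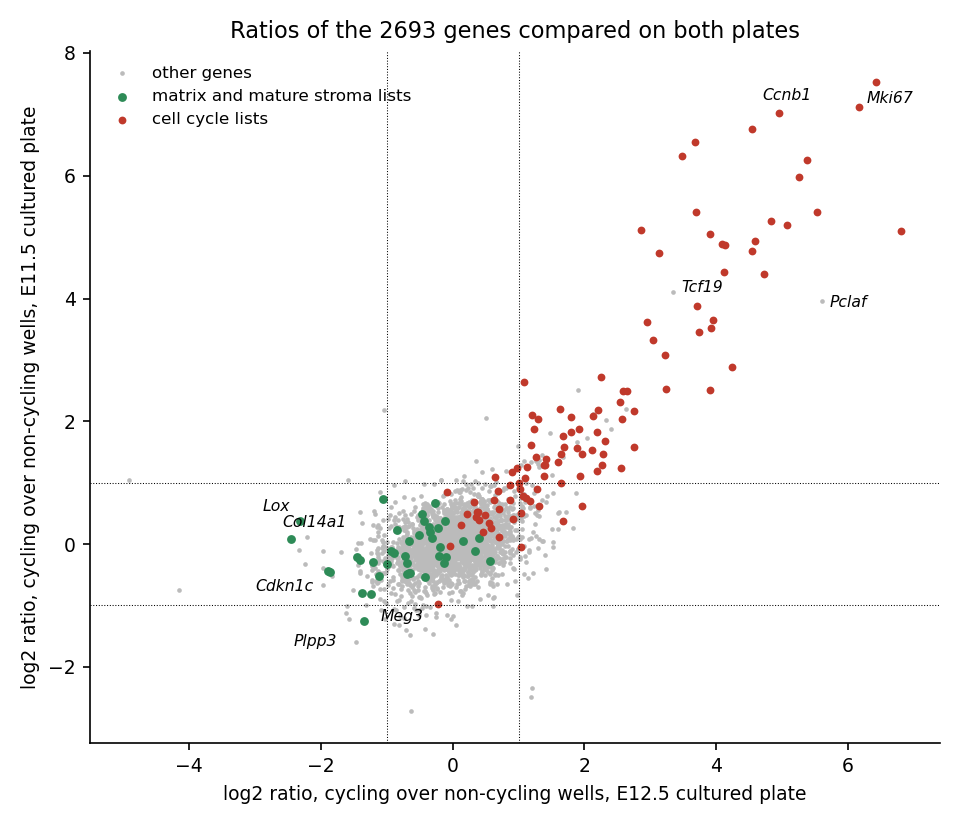
Log2 ratio of cycling over non-cycling wells for 2693 genes, with the E12.5 cultured plate on the horizontal and the E11.5 cultured plate on the vertical axis. Red points are genes of the cell cycle lists, green points the matrix and mature stroma lists, grey points all others, dotted lines mark 2-fold, and a gene with 0 counts in non-cycling wells is drawn at its bound. Cell cycle genes lie in the upper right corner, where 67 of 103 pass 2-fold on both plates besides the 4 rule genes, whose place the choice of wells fixed, and few genes lie in the lower left corner.

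Among the 23 genes higher on both plates outside the lists, Pclaf led. Pclaf, the PCNA-associated factor of replicating cells, had a lowest, median and highest level of 0, 643 and 2975 CPM in cycling wells and 0, 0 and 200 CPM in non-cycling wells of the E12.5 plate. Pclaf on the E11.5 plate had 0, 441 and 2001 CPM in cycling wells and 0, 0 and 274 CPM in non-cycling wells. Its ratios were 48.5-fold (20.5 to 151) and 15.6-fold (10.0 to 25.4). Tcf19, a nuclear protein induced late in G1, was 10.2-fold (4.44 to 28.7) and 17.2-fold (7.11 to 54.3) higher. Rangap1, which acts on the GTPase Ran, was 6.22-fold and 4.58-fold higher, the dynein regulator Nde1 5.02-fold and 4.06-fold, and the H3K36 methyltransferase Nsd2 5.31-fold and 3.67-fold. Pkmyt1, the membrane kinase that restrains Cdk1, was 4.10-fold and 3.31-fold higher, and the histone chaperone Hirip3 4.36-fold and 4.34-fold. Hat1, which acetylates new histones, was 2.49-fold and 2.59-fold higher, the chromatin protein Nucks1 3.08-fold and 2.57-fold, and the tubulin Tubb6 2.79-fold and 3.50-fold. The others were Lsm2, Brip1os, Slc43a3, Ncaph2, Selenoh, Sae1, Dtymk, Nudcd2, H1fx, Cse1l, Fhl2, Sephs1 and Nsmce4a. Brip1os is antisense to a neighbouring gene, and its reads cannot be told apart from that gene's where strand was not used in counting, which is not stated. Without depth matching 17 of the 23 remained among 65.

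The 7 genes lower on both plates code for secreted, membrane or matrix proteins and for 1 receptor subunit. Plpp3, a membrane phosphatase that breaks down lysophosphatidic acid, had a lowest, median and highest level of 0, 0 and 822 CPM in cycling wells and 0, 156 and 1242 CPM in non-cycling wells of the E12.5 plate. For E11.5 the values were 0, 27.7 and 1352 CPM in cycling wells and 0, 191 and 1987 CPM in non-cycling wells. It was 2.77-fold lower (1.87 to 4.20) and 3.03-fold lower (2.35 to 3.94), with much overlap between the wells of both classes. The membrane collagen Col23a1 was 2.98-fold (1.78 to 5.17) and 2.33-fold (1.42 to 3.89) lower. Pcsk5, a protease that matures secreted proteins, was 3.07-fold and 2.17-fold lower, and Kctd12, a receptor subunit, 2.12-fold and 2.11-fold. The guidance factors Sema3c and Efnb3 were 2.04-fold and 2.34-fold lower, and 3.06-fold and 2.01-fold lower. The matrix protein Fbln2 was 2.53-fold and 2.39-fold lower, with 27.7% of its E12.5 counts in 1 well. None of the 7 was still 2-fold lower on both plates without depth matching, and 2 of the 7, Plpp3 and Fbln2, were so in mesenchymal wells alone.

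Of the stromal genes, collagens and mature stroma genes were lower in cycling wells on the E12.5 plate and close to the middle of all genes on the E11.5 plate. In a list of 39 collagen and matrix genes the median log2 ratio was -0.65 over 31 compared on the E12.5 plate, where 8 were at least 2-fold lower, 0 higher and 28 below 0. It was -0.15 over 35 on the E11.5 plate, with 1 lower, 1 higher and 22 below 0. In a list of 18 medullary and mature stroma genes it was -1.07 over 12 on the E12.5 plate, with 6 lower and 0 higher, and -0.25 over 15 on the E11.5 plate, with 0 lower and 0 higher. Over all compared genes, 3.65% on the E12.5 plate and 3.7% on the E11.5 plate were at least 2-fold lower, and 6.38% and 5.71% higher. Of the 31 matrix genes compared on the E12.5 plate 28 reached 50 counts by non-cycling wells alone and 24 by cycling wells alone. Of the 12 stroma genes compared there 11 did so by non-cycling wells alone and 5 by cycling wells alone. Over all 18 listed genes there were 1627 counts in cycling and 3196 in non-cycling wells of the E12.5 plate, and 4802 in cycling and 5255 in non-cycling wells of the E11.5 plate. The lists share Lum, Dcn and Postn, and Cdkn1c belongs to the stroma list as well. Of the stroma list's counts, Cdkn1c gave 326 in cycling and 1080 in non-cycling wells of the E12.5 plate. On the E11.5 plate it gave 834 in cycling and 1081 in non-cycling wells.

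Col1a1, the main chain of type I collagen, had a lowest, median and highest level of 94.1, 3004 and 17298 CPM in cycling wells and 112, 4850 and 31178 CPM in non-cycling wells of the E12.5 plate. Its levels on the E11.5 plate were 358, 5815 and 37401 CPM in cycling wells and 657, 7782 and 39706 CPM in non-cycling wells. The classes overlapped over nearly their whole range on both plates. Over summed counts Col1a1 was 2.17-fold lower (2.02 to 2.33) and 1.44-fold lower (1.38 to 1.49). Its partner Col1a2 was 2.73-fold lower (2.53 to 2.95) and 1.16-fold lower (1.11 to 1.22), the fibrillar collagen Col3a1 1.86-fold and 1.11-fold lower, and the collagen-binding Sparc 1.996-fold and 1.26-fold lower. Col6a3, of microfibrillar collagen VI, was 2.36-fold (1.69 to 3.32) and 1.76-fold (1.48 to 2.09) lower. Among mature stroma genes the proteoglycan Dcn was 2.65-fold lower (2.28 to 3.10) and 1.20-fold lower (1.10 to 1.30), and Lum 3.73-fold (2.24 to 6.48) and 1.36-fold (1.07 to 1.74) lower. Col14a1 had 22 counts in cycling and 110 in non-cycling wells of the E12.5 plate, 5.48-fold lower (3.45 to 9.11), but 221 in cycling and 198 in non-cycling wells of the E11.5 plate, a ratio of 1.06 (0.868 to 1.29). Penk, the enkephalin precursor of medullary stroma, was 1.08-fold lower on the E12.5 plate, within counting error, and 1.30-fold higher (1.16 to 1.45) on the E11.5 plate.

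The matrix difference on the E12.5 plate was seen in the paired wells and was smaller or gone over all wells. Of the 25 cycling wells left without a partner 9 lay within the depth range of the paired ones and the rest were deeper. These 25 wells had 7777 CPM of Col1a1, against 3670 CPM in paired cycling wells and 7977 CPM in paired non-cycling wells. For Col1a2 the values were 7446 CPM in the unpaired and 2872 CPM in the paired cycling wells, against 7844 CPM in paired non-cycling wells. With all 57 cycling and 52 non-cycling wells compared, the collagen and matrix median on the E12.5 plate was -0.0012 in place of -0.65, and Col1a1 had a log2 ratio of -0.31. Sparc then turned to 0.12, and Dcn, Lum and Col14a1 were at -0.42, -0.46 and -0.46, against -1.41, -1.90 and -2.46 in the pairs. Col14a1 had 363 CPM in the unpaired cycling wells, against 70.2 CPM in paired cycling and 385 CPM in paired non-cycling wells. In the E11.5 plate the 17 unpaired cycling wells had 8663 CPM of Col1a1, near the 8318 CPM of the paired ones, and the ratio over all wells was -0.50 against -0.52. Between mesenchymal wells alone Col1a1 remained lower in cycling wells, with log2 ratios of -0.93 and -0.71.

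**Figure D4:**
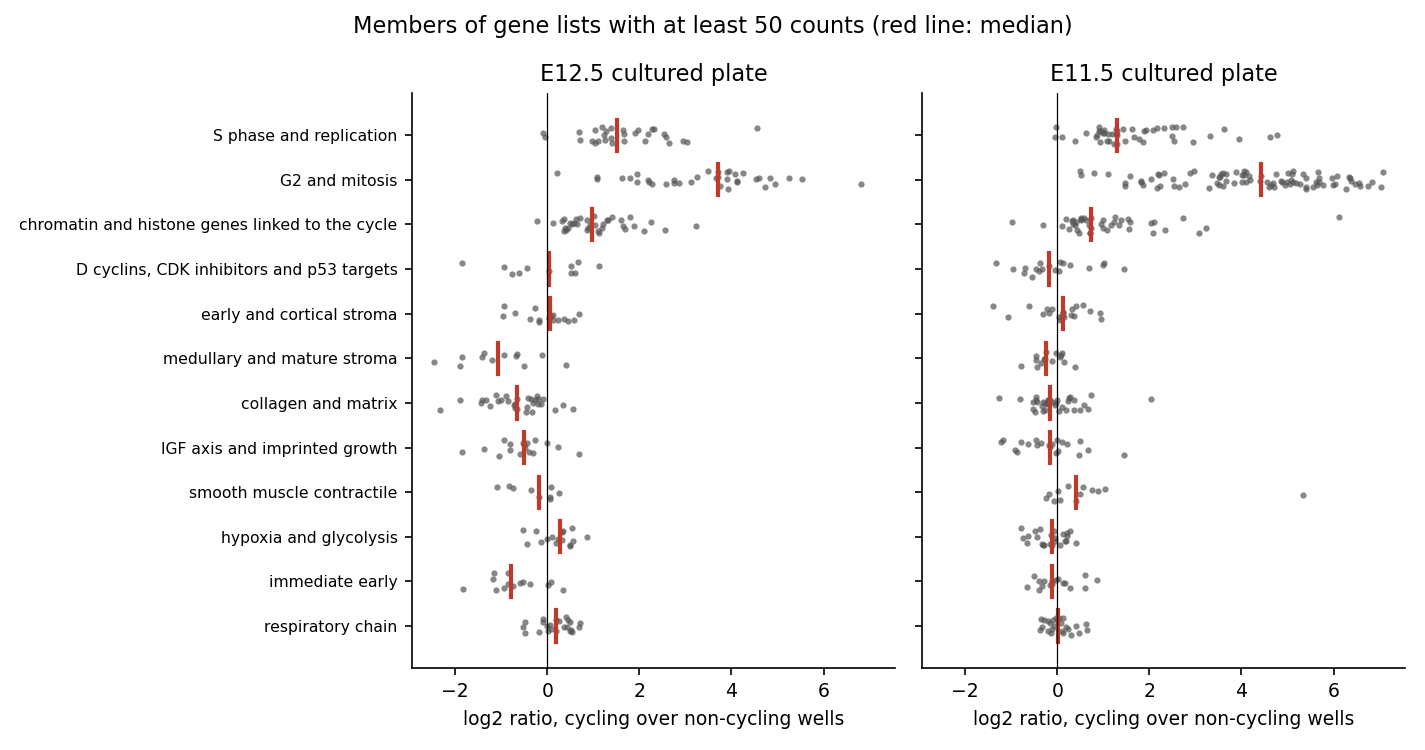
Log2 ratio of cycling over non-cycling wells for members of 12 gene lists with at least 50 counts, E12.5 cultured plate left and E11.5 cultured plate right. Each point is a gene and the red line is the list's median. Medians of the collagen and matrix list (-0.65 and -0.15) and of the mature stroma list (-1.07 and -0.25) lie left of 0, and the cell cycle lists lie to the right.

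Cdkn1c stood between the stroma and cell cycle lists. It had a lowest, median and highest level of 0, 701 and 8719 CPM in cycling wells and 0, 1709 and 21663 CPM in non-cycling wells of the E12.5 plate. The E11.5 plate had 0, 912 and 7052 CPM in cycling wells and 0, 1187 and 14962 CPM in non-cycling wells. Cdkn1c was 3.63-fold lower (3.21 to 4.13) and 1.37-fold lower (1.251 to 1.501), and 1 well held 26.0% of its counts on the E12.5 plate. With the top well of each class left out the log2 ratio was -1.78 on the E12.5 plate, and over all unmatched wells it was -1.48 and -0.64, so that for Cdkn1c the direction was the same with and without the unpaired wells. Other CDK inhibitors were not lower on both plates. Cdkn1b (p27) was 1.69-fold higher (0.852 to 3.51) and 1.62-fold higher (1.08 to 2.44), and Cdkn1a (p21) had 9 counts in cycling and 31 in non-cycling wells of the E12.5 plate, and 51 in cycling and 44 in non-cycling wells of the E11.5 plate.

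D cyclins, which drive cells into the cycle, were lower or level in cycling wells. Ccnd2 had a lowest, median and highest level of 0, 992 and 4577 CPM in cycling wells and 0, 1416 and 4762 CPM in non-cycling wells of the E12.5 plate, and 0, 681 and 2807 CPM in cycling wells and 0, 1163 and 5856 CPM in non-cycling wells of the E11.5 plate. It was 1.54-fold lower (1.34 to 1.77) and 1.63-fold lower (1.46 to 1.83). Ccnd3 was 1.69-fold (1.32 to 2.16) and 1.32-fold (1.11 to 1.57) lower. Ccnd1 was 1.03-fold higher on the E12.5 plate, within counting error, and 2.50-fold lower (1.998 to 3.15) on the E11.5 plate. Its counts were uneven between wells. The highest non-cycling well of the E11.5 plate had 3772 CPM of Ccnd1 and 775 CPM of Col1a1. The highest cycling well of the E12.5 plate had 3780 CPM of Ccnd1. Unpaired wells of the E11.5 plate had 226 CPM in cycling and 232 CPM in non-cycling wells, against 192 and 480 CPM in paired ones. Cdk2, the partner of cyclins E and A, was 2.17-fold higher (1.18 to 4.16) and 1.99-fold higher (1.26 to 3.21). The 25 genes of the D cyclin and CDK inhibitor list had a median of 0.05 over 11 compared on the E12.5 plate, with 1 higher and 1 lower, and -0.17 over 19 on the E11.5 plate, with 2 higher and 1 lower. Shares over all compared genes were 6.38% and 5.71% at least 2-fold higher, and 3.65% and 3.7% lower.

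Imprinted and IGF genes were lower in part. Meg3, the long non-coding RNA of the maternal Dlk1 locus, had a lowest, median and highest level of 0, 612 and 4688 CPM in cycling wells and 0, 1418 and 9819 CPM in non-cycling wells of the E12.5 plate. The E11.5 plate had 0, 1100 and 12597 CPM in cycling wells and 0, 2409 and 12039 CPM in non-cycling wells. Meg3 was 2.05-fold (1.80 to 2.35) and 1.89-fold (1.76 to 2.04) lower, at log2 ratios of -0.87 and -0.78 without depth matching. Igf1 was 2.601-fold (1.76 to 3.90) and 1.73-fold (1.51 to 2.001) lower, and the IGF-binding Igfbp5 1.76-fold (1.54 to 2.03) and 1.56-fold (1.44 to 1.70). The imprinted RNA H19 was 1.36-fold and 1.35-fold lower, whereas Igf2 was 1.51-fold lower (1.37 to 1.66) on the E12.5 plate and 1.16-fold higher (1.09 to 1.24) on the E11.5 plate, and the adaptor Grb10 was level at log2 ratios of -0.0032 and 0.02. Over 22 listed genes the median was -0.51 on the E12.5 plate, with 3 of 17 at least 2-fold lower and 0 higher, and -0.15 on the E11.5 plate, with 2 of 21 lower and 1 higher. Over all compared genes of these plates 3.65% and 3.7% were at least 2-fold lower.

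**Figure D5:**
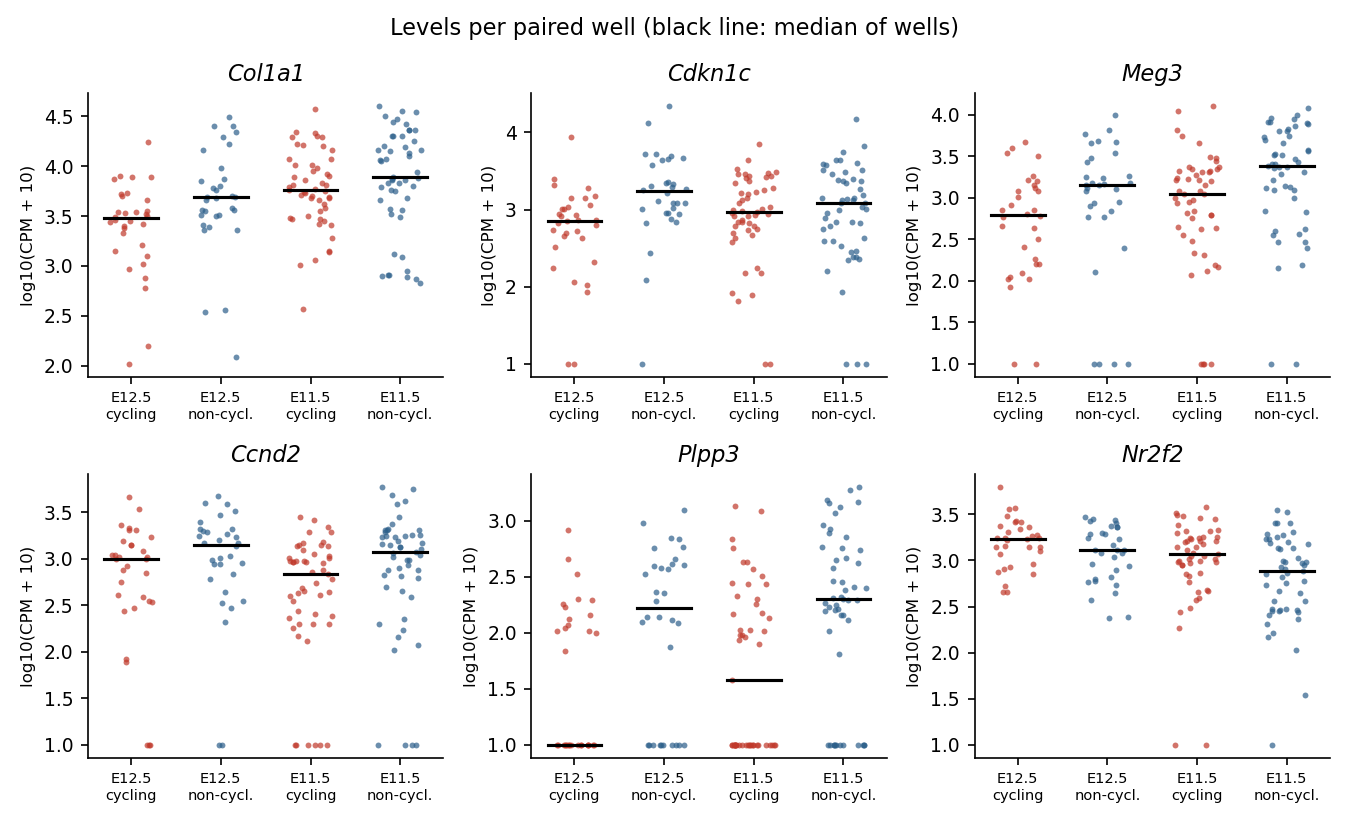
Level of 6 genes per paired well as log10 of CPM plus 10, in cycling (red) and non-cycling (blue) wells of the E12.5 cultured plate and then of the E11.5 cultured plate. Each point is a well, points at 1.0 are wells with 0 counts, and the black line is the median over wells. Medians of Col1a1, Cdkn1c, Meg3, Ccnd2 and Plpp3 are lower and that of Nr2f2 higher in cycling wells of both plates, with wells of both classes overlapping.

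Genes of early stroma were not lower as a group. Over a list of 24 early and cortical stroma genes the median log2 ratio was 0.06 for 16 compared on the E12.5 plate, with 0 past 2-fold, and 0.13 for 21 on the E11.5 plate, with 0 higher and 2 lower. Among all compared genes 3.65% and 3.7% were at least 2-fold lower, and 6.38% and 5.71% higher. The nuclear receptor Nr2f2 (COUP-TFII) had a lowest, median and highest level of 441, 1714 and 6174 CPM in cycling wells and 225, 1282 and 2971 CPM in non-cycling wells of the E12.5 plate. Its values on the E11.5 plate were 0, 1158 and 3772 CPM in cycling wells and 0, 765 and 3542 CPM in non-cycling wells. It was 1.28-fold (1.13 to 1.46) and 1.48-fold (1.32 to 1.65) higher, but without depth matching its log2 ratio on the E12.5 plate was -0.14. Foxd1, the factor of cortical stroma, was 1.49-fold higher (0.995 to 2.25) and 1.93-fold higher (1.19 to 3.21), though at -0.41 on the E12.5 plate without matching. Non-cycling wells left without a partner had 293 and 128 CPM of Foxd1, against 214 and 91.0 CPM in paired cycling wells. They had 1626 and 1341 CPM of Nr2f2, against 1827 and 1373 CPM in paired cycling wells. Without matching the E11.5 log2 ratios were 0.53 for Foxd1 and 0.40 for Nr2f2. Aldh1a2, which makes retinoic acid, was 1.37-fold (0.869 to 2.18) and 1.89-fold (1.24 to 2.95) higher, and without matching its log2 ratios were 0.26 and 0.83. The chemokine Cxcl12 was 1.63-fold lower (1.24 to 2.16) and 2.63-fold lower (2.10 to 3.32). The Wnt antagonist Dkk2 had 1 count in cycling and 28 in non-cycling wells of the E12.5 plate. These are too few to pass the filter on counts, so its ratio on that plate is not used. On the E11.5 plate Dkk2 was 2.11-fold lower (1.41 to 3.21). The receptors Pdgfra and Pdgfrb and the factor Tcf21 differed by at most 1.14-fold on the E11.5 plate, while Pdgfra was 1.95-fold lower (1.43 to 2.67) and Pdgfrb 1.62-fold higher (0.991 to 2.70) for E12.5.

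Nephron genes were sparse. Of 14 nephron progenitor genes only Wt1, also a gene of the early mesenchyme and of podocytes, reached 50 counts on both plates, and it was 2.05-fold (1.43 to 2.98) and 1.34-fold (1.06 to 1.70) higher in cycling wells. Without depth matching Wt1 was at 0.39 and -0.04 on the log2 scale. Six2 had 20 counts in cycling and 5 in non-cycling wells of the E12.5 plate, and 27 in cycling and 15 in non-cycling wells of the E11.5 plate, with 32.0% and 33.3% of them in 1 well. The medullary stroma and early nephron ligand Wnt4 was 2.30-fold (1.57 to 3.42) and 1.22-fold (0.863 to 1.73) lower. Lgr6 itself had 0 counts in cycling wells of either plate, which allows up to 9.58 and 5.15 CPM, against 2 and 5 counts in non-cycling wells. Its relative Lgr4 had 16 counts in cycling and 19 in non-cycling wells of the E12.5 plate, and 24 in cycling and 21 in non-cycling wells of the E11.5 plate. The tdTomato reporter of Cre activity was found in 12 cycling and 12 non-cycling wells of 32 each on the E12.5 plate and in 21 cycling and 23 non-cycling wells of 51 each on the E11.5 plate. Its ratio was 1.39-fold higher (0.728 to 2.74) and 1.28-fold lower (0.758 to 2.16), a difference within counting error on both plates.

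Smooth muscle genes depended on single wells. Among 16 contractile genes the log2 ratios had a median of -0.19 for 9 compared on the E12.5 plate and 0.40 over 13 on the E11.5 plate, and the E11.5 value was -0.10 without the top well of each class and -0.49 in mesenchymal wells alone. Acta2, smooth muscle actin, was 1.04-fold higher in cycling wells of the E12.5 plate and 2.06-fold higher (1.75 to 2.42) on the E11.5 plate, where 1 well held 55.5% of its counts and its log2 ratio was -0.76 without the top wells. Of the Actg2 counts on the E11.5 plate 96.4% lay in 1 well. Over all wells of the E12.5 plate the list's median was 0.82. There the 25 cycling wells without a partner had 3503 CPM of Acta2, against 284 CPM in paired cycling wells and 273 CPM in paired non-cycling wells. The 17 such wells of the E11.5 plate had 962 CPM, against 820 CPM in paired cycling and 398 CPM in paired non-cycling wells. Tagln, a further contractile gene, had 658 CPM in these unpaired wells of the E12.5 plate against 57.5 CPM in paired cycling and 98.0 CPM in paired non-cycling wells.

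Other cell types were present in both classes. Wells with at least 5 counts of the macrophage list numbered 6 on the E12.5 plate (2 cycling, 1 non-cycling) and 20 on the E11.5 plate (6 cycling, 4 non-cycling). For endothelium there were 15 wells on the E12.5 plate (7 cycling, 0 non-cycling) and 18 on the E11.5 plate (6 cycling, 4 non-cycling). For neural cells and neural crest there were 11 (4 cycling, 2 non-cycling) and 32 (8 cycling, 12 non-cycling), for granulocytes 0 and 14 (6 cycling, 2 non-cycling), and for 4 epithelial genes 8 (2 cycling, 3 non-cycling) and 5 (1 cycling, 1 non-cycling). Wells under 5 counts in each of these lists, called mesenchymal here, numbered 170 (47 cycling, 46 non-cycling) and 227 (47 cycling, 84 non-cycling).

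Some of the largest ratios of the E11.5 plate lay in genes of these cells. The neural and neural crest list of 13 genes had 79 counts in paired cycling wells and 1519 in paired non-cycling wells, of which 65.5% lay in 1 well and 80.2% in 2. Its summed level reached 1330 CPM in the highest cycling well and 25051 CPM in the highest non-cycling well, and 4 of its genes were at 0 in cycling and 0 of them in non-cycling wells. The 8 of its genes that reached 50 counts did so by the non-cycling wells alone, so their ratios are not used. Gap43, of growing axons, had 3 counts in cycling and 235 in non-cycling wells. The granulocyte list of 8 genes, 7 of them in the table, had 1179 counts in cycling and 57 in non-cycling wells, with 93.7% of the cycling counts in 1 well, which reached 95659 CPM against 527 CPM in the highest non-cycling well. Of its genes 1 was at 0 in cycling and 2 in non-cycling wells, and S100a8, a granulocyte calcium-binding protein, had 409 counts in cycling and 16 in non-cycling wells. The macrophage list of 13 genes had 896 counts in cycling and 950 in non-cycling wells, with no gene at 0 in either class. Of these counts 49.2% in cycling and 71.5% in non-cycling wells lay in 1 well, and 90.2% and 95.6% in 2. With mesenchymal wells alone, 38 pairs on the E11.5 plate, 195 genes were higher and 85 lower in place of 296 and 192, and Gap43 was at -1.09 and S100a8 at 0.44 on the log2 scale. The main comparison had 51 pairs, and with fewer wells fewer genes can reach 50 counts. These numbers of genes are therefore not shares of the same set, and what made them smaller was not tested. On the E12.5 plate the paired wells held 22 macrophage counts in cycling and 17 in non-cycling wells, 31 neural counts in cycling and 30 in non-cycling wells, and 2 granulocyte counts in each class.

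Immediate early genes were lower in cycling wells of the E12.5 plate, with a median log2 ratio of -0.79 over 14 of 19 genes and 4 at least 2-fold lower, against -0.11 over 17 on the E11.5 plate with 0 past 2-fold. For this and the following lists, the shares over all compared genes were 3.65% and 3.7% at least 2-fold lower, and 6.38% and 5.71% higher. Klf4 was 3.58-fold (2.22 to 5.98) and 1.43-fold (1.09 to 1.88) lower, the cytokine brake Socs3 2.25-fold and 1.32-fold lower, and the RNA-decay factor Zfp36 2.23-fold and 1.11-fold lower. Egr1 was level, with log2 ratios of 0.02 and -0.11. These genes also respond to dissociation of tissue, whose part in the values was not tested. Hypoxia and glycolysis genes had medians of 0.28 and -0.12 and respiratory chain genes 0.20 and 0.01, with 0 genes past 2-fold on either plate. In the stress response and serine pathway list (medians 0.35 and 0.04) the serine enzyme Psat1 was 1.93-fold (1.33 to 2.84) and 1.71-fold (1.28 to 2.31) higher, and Asns, which makes asparagine, 2.59-fold (1.51 to 4.63) and 1.03-fold (0.747 to 1.43) higher. The fetal RNA-binding protein Igf2bp1 was 2.43-fold (1.39 to 4.44) and 1.39-fold (0.974 to 1.98) higher. Fetal timing genes had medians of 0.20 and 0.18 over 4 genes. Interferon and MHC class I genes had medians of 0.06 and 0.01. Wnt targets and antagonists had medians of -0.93 over 3 genes and -0.25 over 7, led by Sfrp2, which was 3.93-fold lower (2.76 to 5.75) on the E12.5 plate and 1.09-fold lower (0.826 to 1.43) on the E11.5 plate, with 27.4% of its E12.5 counts in 1 well. The sparse podocyte list had log2 ratios of 0.63 for 1 gene and a median of 0.12 over 3, 1 of them 2-fold lower, 1 tubule gene was at -0.02 and 1 skeletal muscle gene at 0.01 on the E11.5 plate, and 1 gonad gene, Gata6, was at 0.10 and 0.36.

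The uncultured plate, not used to choose genes, held 210 cycling and 17 non-cycling wells of 337 by the same rule, 62.3% cycling (56.9 to 67.5). Its 15 control wells reached 4 counts of Mki67 and Top2a, 10 of them with at least 1, so that its classes include background. In 17 pairs Col1a1 was 2.37-fold lower (1.70 to 3.34) in cycling wells, at 817 CPM against 1934 CPM in non-cycling wells, and Col1a2 1.98-fold lower (1.495 to 2.66). The 193 cycling wells of that plate left without a partner, 51 of them no deeper than the deepest paired one, had 489 CPM of Col1a1. Cdkn1c was 1.55-fold (1.13 to 2.14), Ccnd2 1.55-fold (1.02 to 2.40), Cxcl12 6.00-fold (2.94 to 13.8) and Sfrp2 3.51-fold (2.28 to 5.53) lower. Nr2f2 was 1.48-fold (1.12 to 1.98) and Aldh1a2 1.59-fold (1.05 to 2.44) higher. Meg3, at 1.45-fold lower (0.898 to 2.37), Wt1, at 1.28-fold higher (0.883 to 1.87), and Foxd1, at 1.31-fold lower (0.828 to 2.07), were within counting error. Plpp3 had 6 counts in cycling and 7 in non-cycling wells there, too few to compare. The 193 unpaired cycling wells were near the non-cycling wells for Nr2f2, at 1327 CPM against 1336 CPM, and for Ccnd2, at 880 CPM against 927 CPM. In paired cycling wells these genes were at 1981 CPM and 597 CPM. For other genes the unpaired cycling wells had 1390 CPM against 1634 CPM of Cdkn1c, 703 CPM against 613 CPM of Aldh1a2 and 221 CPM against 848 CPM of Cxcl12.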

How the data were processed

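The authors deposited 1 table per plate of expected counts, numbers of distinct molecular identifiers per gene and well with a correction for repeat draws of an identifier, as judged from the values (1.18% to 1.65% are not whole). Per the submitters' processing notes, STAR 2.6.1a, featureCounts 1.5.2 and the build GRCm38.p5 were used. Settings, strand included, are not given in the sources used here. A column of counts with no known well, 4.21% to 4.27% of each plate, was left out. Wells labelled as controls or as holding more than 1 cell were set aside. Wells with at least 1000 nuclear counts and at most 30% mitochondrial counts were kept, with mitochondrial genes, spike-ins and added sequences outside the totals. Kept wells held 1100 to 77740 counts on the E12.5 plate and 1132 to 78448 on the E11.5 plate.

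Cycling and non-cycling wells were paired 1 to 1 by the least total difference in log10 counts, within 0.1, with scipy 1.17.1, numpy 2.4.6 and pandas 2.3.3 under python 3.11.15, and drawn with matplotlib 3.10.9. Genes with at least 50 counts in the pairs were compared by the ratio of CPM of summed counts. Values were rounded only for intervals and thinning. The ratios, but not the pairing, were tested on counts simulated at the depths of the real pairs. No doublet caller was run on these sorted cells, and leaving out wells deeper than 3 times the median of their plate was an alternative. Labels give no replicate.

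Members and lists were chosen with earlier results of these data known. Named genes were the rule genes, the 5 leading genes of both phase lists, up to 15 genes each way outside the cell cycle lists with no well above 25% of the counts, 2 to 4 members per list with the largest and smallest ratios, and Lgr4, Lgr6 and the reporters. Col1a1, Col1a2, Col3a1, Sparc, Dcn, Igfbp5, H19, Igf2, D cyclins, Cdkn1a, Cdkn1b, Nr2f2, Six2, Dkk2, Pdgfra, Pdgfrb, Tcf21, Tagln, Actg2, Gap43, S100a8 and the 8 genes higher on both plates past the leading 15 were named after their values were seen, and levels in unpaired wells were added then too. Lists without 50 counts in any gene on either plate (ureteric and epithelial, endothelium, erythroid) have no median.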

Additional observations from a re-analysis of the deposited data

Results flagged for a closer look

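Several genes had a ratio at least 2-fold lower in cycling wells of the E12.5 plate and a log2 ratio above 0 on the E11.5 plate. Of these, 3 were flagged and are given here. Others include Col14a1, with log2 ratios of -2.46 and 0.08, Tpm1, with -1.08 and 0.07, and B2m, with -1.13 and 0.13. The difference between the plates was not tested. Lox, which cross-links collagen, had a log2 ratio of -2.32 on the E12.5 plate, with 16 counts in cycling and 73 in non-cycling wells, and 0.37 on the E11.5 plate. Thbs1, a matrix glycoprotein, had -1.06 and 0.74, with 31.7% of its E11.5 counts in 1 well, and -0.26 on the E11.5 plate in mesenchymal wells alone. Klf2, a flow-responsive transcription factor, had -1.11 and 0.85, with 21.7% of its E12.5 counts in 1 well.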

How the results depend on the processing

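After thinning to 3000 counts, with the threshold lowered to 1 count of Mki67 or Top2a, 38.2% and 30.9% of wells passed, which is not the share by the rule of 3 counts. Counts of genes at least 2-fold higher or lower in cycling wells moved most with depth and with the filter on counts. On the E12.5 plate 370 genes were higher without matching, 25 higher and 23 lower after thinning, 582 and 390 with a filter of 20 counts, and 10 and 10 with 200. On the E11.5 plate 54 were higher and 29 lower after thinning, 195 and 85 in mesenchymal wells, 681 and 607 with a filter of 20 counts, and 34 and 19 with 200. Outside the cell cycle lists, genes past 2-fold on both plates numbered 65 higher without matching, 4 higher and 1 lower after thinning, 82 and 36 at 20 counts, 1 and 0 at 200, and 12 lower with cycling wells set at 5 counts or without the top well of each class. Thinned tables hold fewer genes with 50 counts. Mesenchymal wells gave 38 pairs on the E11.5 plate in place of 51, so the genes that reach 50 counts can differ there too. The cause of the other shifts was not tested. Among named genes and lists past 2-fold, signs turned on the log2 scale for Tpm1 (0.82), B2m (0.017) and Thbs1 (0.062) on the E12.5 plate without matching, and for Acta2 on the E11.5 plate with means over wells (-0.18), after thinning (-0.15), in mesenchymal wells (-1.54), without deep wells (-1.37) and without top wells (-0.76). Smaller ratios and medians turned sign 174 times over 71 values, 35 of them without matching, among them Foxd1 (-0.41), Nr2f2 (-0.14) and Sparc (0.12) on the E12.5 plate. By size, 2157 values under alternatives stayed close (within the interval of a gene's ratio, or 0.5 of a list's median) and 222 did not. The 2157 include 212 and 84 gene values under filters of 20 and 200 counts, which leave a gene's ratio unchanged. They also include 215 after subtracting the plate's median log2 ratio of 0.05 or 0.01. Of gene values, thinning left 152 close, moved 57 and turned 1. Leaving out the matching left 167 close, moved 45 and turned 3. No paired analysis was possible because the labels give no replicate numbers and each group is 1 plate.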

Other observations

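Wells that met neither condition can be set beside the classes, without depth matching. Cdkn1c was at 733 CPM (671 to 801) in 37 wells of the E12.5 plate with at least 10 counts of Mki67 and Top2a and at 2478 CPM in 20 wells with 3 to 9. It was at 2794 CPM in 91 wells of neither class and 3224 CPM in 52 non-cycling wells. On the E11.5 plate the levels were 958 CPM (887 to 1035) in 42 wells with at least 10 counts, 2111 CPM in 26 wells with 3 to 9, 1411 CPM in 127 wells of neither class and 2067 CPM in 105 non-cycling wells. Ccnd2 had 845 CPM and 866 CPM in wells with at least 10 counts and 1303 to 1786 CPM in every other class of both plates. Meg3 had 1130 CPM and 1273 CPM in wells with at least 10 counts, against 2075 CPM and 3051 CPM in non-cycling wells, but wells with 3 to 9 counts differed between the plates, at 1162 CPM on the E12.5 and 2849 CPM on the E11.5 plate. These wells also differ in depth, whose part in the levels was not tested.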
